A study of Mus musculus with 2 samples.

Results

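WNT ligands, their Frizzled receptors and their secreted inhibitors were examined in cultured fibro-adipogenic progenitors (FAPs) of mouse muscle. Genes were taken by name alone, as Wnt, Fzd, Sfrp1 to Sfrp5 and Dkk1 to Dkk4. The rule uses no measured value, but the families were chosen with earlier results of these data known. They were 30 of the 26082 genes listed, with 15 ligand genes, 10 Frizzled genes, 3 Sfrp genes and 2 Dkk genes. Wnt1, Wnt3, Wnt3a, Wnt9b, Sfrp5, Dkk1 and Dkk4, 7 of the 37 mouse genes that these names cover, were not analysed here. Frzb, also known as Sfrp3, is listed under its own name and stands with the other antagonists below.

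WNT proteins are lipid-modified glycoproteins that bind Frizzled receptors on the cell surface. Together with the co-receptors Lrp5 and Lrp6 they keep β-catenin from being degraded, while other pairings act on planar polarity or calcium without β-catenin. Sfrp proteins carry a Frizzled-like domain and hold WNTs in the extracellular space, most Dkk proteins block Lrp5 and Lrp6, and β-catenin signalling is known for holding back fat cell formation in mesenchymal progenitors such as FAPs.

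The study asked how TGFBR3, a co-receptor for TGF-β family ligands, acts on fat cell formation from FAPs. Wild-type primary FAPs, sorted from hind limb muscle of C57BL/6 mice bought at 6 to 8 weeks of age, received either a TGFBR3 overexpressing plasmid or the empty vector, and both cultures were then kept in adipogenic induction medium with IBMX, dexamethasone and insulin. Each kind of culture gave 1 RNA library. There was no replicate, so no difference below has a replicate check or a p-value, and all of them compare a pair of libraries rather than conditions. The length of induction, the number of mice behind a culture and the share of cells that took up plasmid were not given in the sources used here.

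Tgfbr3 itself checks the labels. Its FPKM (fragments scaled by exon length and library total) was 36.9 where the label gives TGFBR3 overexpression and 35.1 where it gives the vector control, with 16372 and 21245 counts. The log2 ratio of (FPKM + 1) was 0.07 (95% counting interval 0.04 to 0.10), below the median of 0.13 over the 10626 genes at FPKM 1 or more in both libraries, so that after centring on that median it was −0.06. Overexpression was thus not seen in the gene's own RNA, and the libraries are named below by their labels, OE-labelled and vector, without any claim on TGFBR3 level. Nothing in the files shows which culture held the plasmid, so each direction below is that of the labels and would turn if they were exchanged, and whether the counting would see the RNA of the plasmid was not tested. Total counts were 62321027 and 83779203. Of 11 FAP markers 10 were detected, among them Pdgfra at FPKM 30.5 and 32.6, while Tcf21 was at 0 in both libraries. Adipocyte markers were lower in the OE-labelled library for 6 of 6 genes, 3 of them at least 2-fold, with a summed FPKM of 35.4 against 70.8. Summed FPKM stayed at or below 5.73 for the other marker lists: mural cells 4.28 and 5.73, endothelium 2.39 and 2.05, glia 2.02 and 3.80, muscle 1.65 and 1.30, leukocytes 0.73 and 0.47 (Adgre1, Tyrobp and Fcer1g at 0 in both), and epithelium 0.16 and 0.13. In bulk RNA, fewer cells of a type and less RNA per cell cannot be told apart.

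Of the members at FPKM 1 or more in at least 1 library, those with the lowest log2 ratios were 4 genes, namely Wnt2 (chr6:17988940-18030585, minus strand), Dkk2 (chr3:132085292-132180304, plus strand), Sfrp2 (chr3:83766321-83774316, plus strand) and Wnt11 (chr7:98835112-98855195, plus strand), placed on mm10. Their promoters are shown because of these low ratios, a choice made from the values. They are RefSeq sequences of build GRCm38.p6 before the start of each gene, written 5′ to 3′ on the gene's strand, 250 bases each except Wnt2, where the 110 bases outside the annotated gene are given (chr6:18030586-18030695). Capitals mark the only match to CTTTGA, the core that TCF and LEF factors bind, which reads TCAAAG on the strand printed.
Wnt2: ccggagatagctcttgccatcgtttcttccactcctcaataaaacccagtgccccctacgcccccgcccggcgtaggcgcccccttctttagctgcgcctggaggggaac
Dkk2: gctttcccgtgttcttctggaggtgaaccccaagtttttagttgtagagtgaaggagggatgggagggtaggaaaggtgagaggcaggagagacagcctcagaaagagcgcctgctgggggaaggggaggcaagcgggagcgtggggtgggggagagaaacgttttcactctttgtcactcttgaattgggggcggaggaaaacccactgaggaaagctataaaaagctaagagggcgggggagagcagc
Sfrp2: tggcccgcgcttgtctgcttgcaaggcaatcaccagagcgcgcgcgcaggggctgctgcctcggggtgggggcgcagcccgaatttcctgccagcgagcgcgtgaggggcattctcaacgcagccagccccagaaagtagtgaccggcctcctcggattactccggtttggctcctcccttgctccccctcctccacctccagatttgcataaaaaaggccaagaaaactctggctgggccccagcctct
Wnt11: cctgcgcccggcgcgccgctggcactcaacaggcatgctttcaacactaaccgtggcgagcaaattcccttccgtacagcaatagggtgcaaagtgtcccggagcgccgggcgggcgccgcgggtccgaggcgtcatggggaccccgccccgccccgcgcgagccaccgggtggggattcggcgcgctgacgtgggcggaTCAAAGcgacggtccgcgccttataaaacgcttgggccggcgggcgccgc
The Wnt11 match begins 50 bases before the start of the gene. Wnt11 has a second RefSeq start, whose promoter held no match. Over both strands CTTTGA stood in 13.8% of 32851 RefSeq promoters of the same length, and the SMAD palindrome GTCTAGAC in 0.17%. Of the 19 members with a promoter in the RefSeq table, with 22 promoters in all, Fzd1 (close to the far end of its window), Wnt5b (at 1 of 3 starts) and Wnt11 held the TCF core, and none held the SMAD palindrome. Member promoters were rich in G and C, with a median of 68.8% against 52.4% over all promoters, and with a median of 22.5 CpG sites against 6.

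Of the 30 members, 28 were above the floor of 3 counts in at least 1 library and 26 in both. Wnt8a (1 and 0 counts in the OE-labelled and vector libraries) and Wnt8b (3 and 0 counts) were at or under it. Frizzled and inhibitor transcripts made up most of the family's signal, and few ligands reached FPKM 1. Summed FPKM in the OE-labelled and vector libraries was 8.76 and 10.4 for the ligands, 42.5 and 48.6 for the Frizzleds, 31.7 and 34.8 for the Sfrp genes and 24.8 and 31.7 for the Dkk genes. FPKM is scaled by exon length, so that levels of different genes can be set side by side. All 4 sums were lower in the OE-labelled library, by 0.25, 0.19, 0.14 and 0.35 on the log2 scale in that order, when the deposited scaling was kept.

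**Figure D1:**
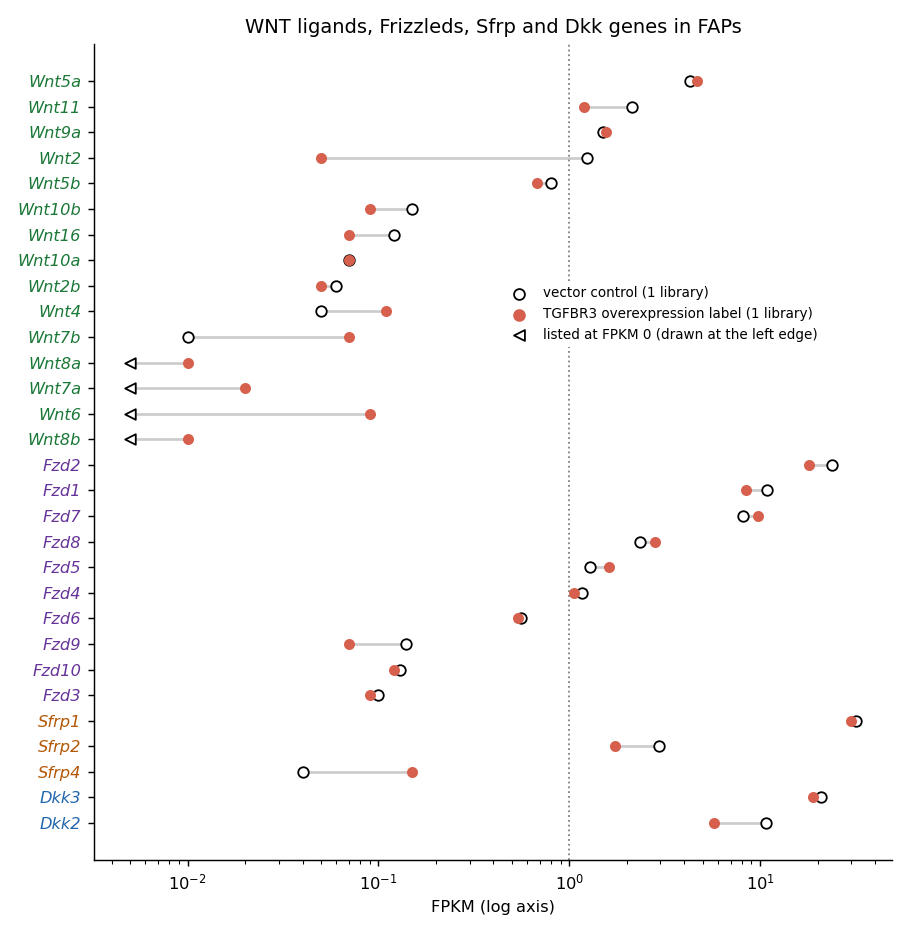
FPKM (log axis) of each member in the vector library (open circles) and the OE-labelled library (filled circles), 1 library each, with gene names coloured by class and triangles for an FPKM of 0. Wnt2 shows the widest gap among genes above FPKM 1 in either library, at 1.24 against 0.05.

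Only Wnt2 passed a 2-fold difference in (FPKM + 1), being lower in the OE-labelled library. That is 1 of 28 detected members lower and 0 higher, where 0.58% of 21364 detected genes were lower and 1.73% higher. With median-of-ratios size factors, 1.29% of all genes were lower and 1.14% higher, and Dkk2 was lower as well. The pseudocount of 1 shrinks the ratios of genes with low FPKM. By the plain ratio without it, over the 26 members above the floor in both libraries, Wnt2 was lower and Wnt7b, Sfrp4 and Wnt4 were higher, against 4.22% lower and 13.4% higher among 17985 genes. These counts of members are too small to set the family apart from the background. In all, 10 members had a log2 ratio above 0, 17 below and 1 at 0, with a median of −0.02 against 0.06 over all detected genes, of which 61.95% were above 0. Of the members, 13 stayed below 0 under every scaling and filter tried, only Fzd7 stayed above 0, and the other 14 changed side or reached 0. Centring lowers every gene by 0.13, so a ratio near 0 stays below 0 more easily than above it. Fzd3 (−0.01) and Fzd6 (−0.02) are among the 13. The same counts were not made over all genes, so they do not set the family apart.

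**Figure D2:**
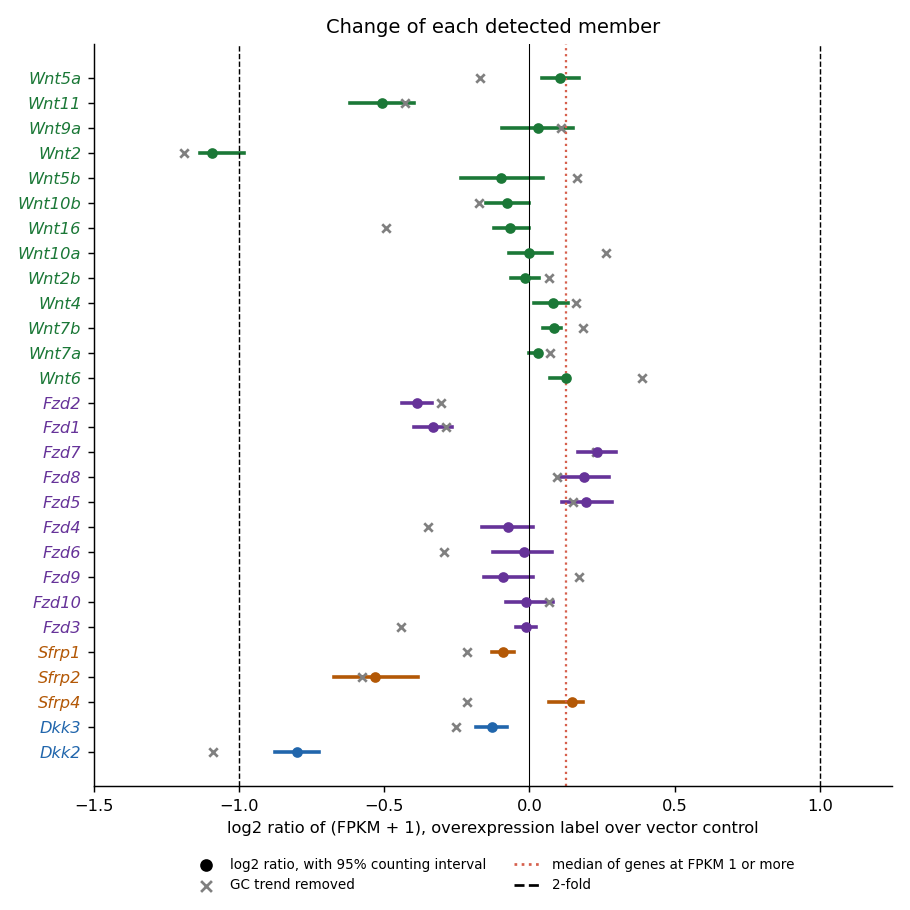
Log2 ratio of (FPKM + 1), OE-labelled library over vector library, of each detected member (circles) with its 95% counting interval (bars), and after removal of the trend with GC content (crosses). The dotted line is the median of genes at FPKM 1 or more, 0.13, and the dashed lines are 2-fold. Wnt2 lies beyond the left dashed line, and Dkk2 does so once the GC trend is removed.

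Among the ligands, Wnt2 showed the widest difference. Wnt2 is a ligand best known for signalling through β-catenin. It had 9 counts and an FPKM of 0.05 in the OE-labelled library, and 259 counts and an FPKM of 1.24 in the vector library. Its log2 ratio was −1.09 (−1.13 to −0.98, which reaches just inside 2-fold), and −1.19 with the GC trend removed. The plain ratio was −4.40 (−5.55 to −3.45), which is 21.1-fold lower. The intervals are exact Clopper-Pearson intervals at 95% and cover counting error only, since reads are not independent molecules and the spread between cultures was not measured. Wnt2 counts in the vector library were few for the depth, so it was set among genes of like counts. Of 1165 genes with 160 to 319 counts in the vector library, 3 had a ratio as low or lower, Wnt2 included. The adipocyte markers were lower in the same library, and their part in the Wnt2 value was not tested.

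Wnt5a, the classic ligand of β-catenin-independent signalling, was the ligand with the highest level (chr14:28504750-28527448, plus strand). Its FPKM was 4.68 in the OE-labelled and 4.28 in the vector library (2487 and 3095 counts). The log2 ratio was 0.11 (0.04 to 0.17) but turned to −0.02 after centring, −0.17 with the GC trend removed and −0.10 with size factors, so it has no settled direction. With Wnt2 and Wnt11 lower there, Wnt5a held 53.4% of the ligand FPKM in the OE-labelled library and 41.1% in the vector library. Wnt2 held 0.57% and 11.9%.

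Wnt11, which also signals largely without β-catenin, was lower in the OE-labelled library. It had FPKM 1.2 and 338 counts there, and 2.13 and 817 counts in the vector library. The log2 ratio was −0.51 (−0.62 to −0.40), and it stayed between −0.43 and −0.83 under all alternatives. Of 1857 genes with 640 to 1279 counts in the vector library, 3.88% had a plain ratio as low or lower. Wnt11 stood at 0.256 of the Wnt5a level in the OE-labelled library and at 0.498 in the vector library, both per exon length. That difference of −0.96 (−1.16 to −0.76) in log2 ratio does not depend on the library totals, but it does depend on base composition. The gap between the log2 ratios of (FPKM + 1) of Wnt11 and Wnt5a was −0.61, and −0.26 with the GC trend removed. This pair, like the pairs below, was chosen after the values were seen.

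Wnt9a, a ligand known from joint and blood development, differed by less than its counting interval. Its FPKM was 1.56 in the OE-labelled and 1.51 in the vector library (353 and 466 counts), with a log2 ratio of 0.03 (−0.10 to 0.15). Wnt5b, a close relative of Wnt5a, stayed under FPKM 1 in both, at 0.68 and 0.80 with 123 and 196 counts, and the interval of its log2 ratio of −0.10 also spanned 0 (−0.23 to 0.05). Wnt9a and Wnt5b thus gave no difference that counting error would not cover.

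The other detected ligands lay at FPKM 0.15 or less in both libraries. Wnt10b, the ligand best known for restraining fat cell formation, had 21 counts in the OE-labelled library and 49 in the vector library. Wnt16, known from bone, had those same counts. Wnt10a, a relative of Wnt10b, had 12 and 16 counts, and Wnt2b, a relative of Wnt2, had 15 and 26. Wnt10b and Wnt16 had plain log2 ratios of −0.78 each (−1.59 to −0.01), but 16.8% of 1198 genes with 40 to 79 counts in the vector library had a ratio as low or lower, so neither stood apart from genes of like counts, and the intervals of Wnt10a and Wnt2b spanned 0.

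A second group of scarce ligands had more counts in the OE-labelled library although that library was the shallower. Wnt4, known from kidney and gonad development, had 31 counts there and 20 in the vector library. Wnt7b, known from lung and bone, had 23 and 4. Wnt6, which like Wnt10a is known to restrain fat cell formation, had 13 and 0, which is 5.90-fold higher if the 0 is set to 3 counts. Wnt7a, known from limb and muscle, had 4 and 0, or 1.82-fold higher on the same floor. These 2 folds leave out the counting error of the 13 and the 4. The interval of the Wnt7a log2 ratio spanned 0 (−0.001 to 0.03). The plain log2 ratio was 1.08 (0.22 to 1.97) for Wnt4 and 2.97 (1.42 to 4.96) for Wnt7b. With the pseudocount the 4 genes stood between 0.03 and 0.12. Centring takes 0.13 off every gene, more than any of these ratios, and put them between −0.10 and 0.00. At so low an FPKM the centred value therefore does not show a direction.

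Low counts scattered widely in these libraries. Of 4071 genes with 4 to 19 counts in the OE-labelled library, 32.8% had 0 in the vector library, as Wnt6 and Wnt7a did. In the opposite direction, 29.1% of 3866 genes with 4 to 19 counts in the vector library had 0 in the OE-labelled library. Wnt7b, with a plain log2 ratio of 2.97, lay above the 95th percentile of its range, which was 2.33. Of the 3866 genes in that range, 1.78% were at or above its ratio. Of the words of 31 bases in Wnt4 transcripts, 5.84% also occur in other genes, the highest share among the members, and their part in its count was not tested.

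**Figure D3:**
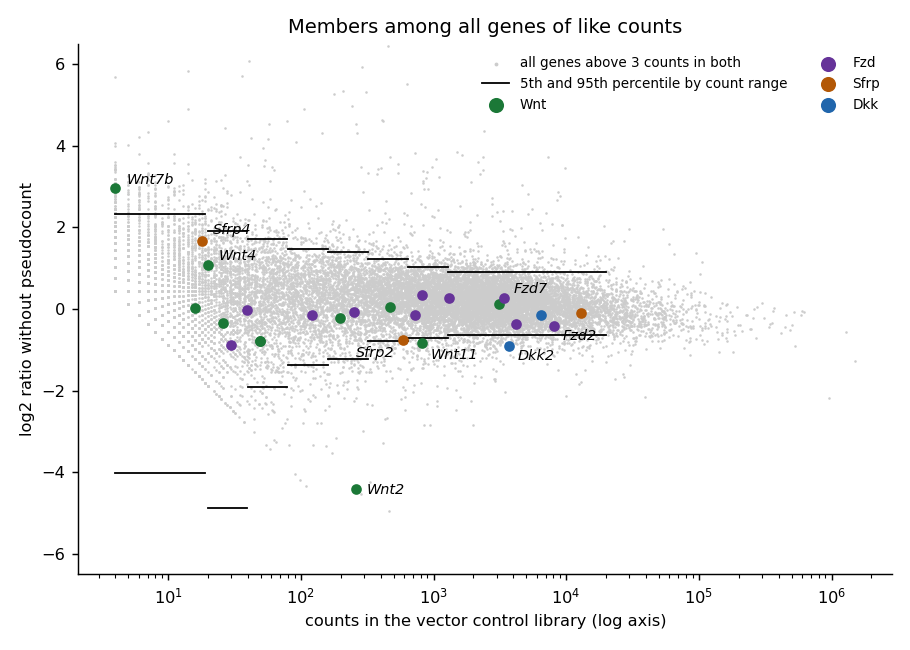
Plain log2 ratio, OE-labelled over vector library, against counts in the vector library (log axis), for all genes above 3 counts in both libraries (grey) and the 26 members (coloured by class). Black lines are the 5th and 95th percentiles of genes in each range of vector counts, genes at 0 in the OE-labelled library included. Wnt2, Wnt11 and Dkk2 lie below the lines, Wnt7b lies above, and the other 22 members lie between them.

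Among the Frizzled receptors, the order of the highest levels differed between the libraries. Fzd2 (chr11:102604396-102608058, plus strand) was the most abundant, at FPKM 17.98 in the OE-labelled library and 23.8 in the vector library (4469 and 8063 counts). Fzd1 (chr5:4753839-4758035, minus strand) had FPKM 8.44 and 10.9 (2403 and 4220 counts). Fzd7 (chr1:59482424-59486955, plus strand) had 9.74 and 8.14 (2994 and 3407 counts). These 3 receptors form a subfamily of close sequence that serves both β-catenin and planar polarity signalling, and each is encoded in a single exon. Fzd2 and Fzd1 were lower in the OE-labelled library, with log2 ratios of −0.39 (−0.44 to −0.34) and −0.33 (−0.40 to −0.27), while Fzd7 was at 0.23 (0.17 to 0.30). Fzd7 remained above 0 under every alternative but came down to 0.01 with size factors.

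Set against each other, the counts of these receptors do not depend on the library totals. Fzd7 stood at 1.15 times the Fzd1 level in the OE-labelled library and 0.748 times in the vector library, a log2 difference of 0.63 (0.52 to 0.73). Against Fzd2, Fzd7 differed by 0.66 (0.58 to 0.75), and Fzd1 against Fzd2 by 0.04 (−0.05 to 0.13). Fzd7 thus stood above Fzd1 in the OE-labelled library and below it in the vector library, and the Fzd1 to Fzd2 proportion differed by less than its counting interval. At most 1.899% of the words of 31 bases in Fzd1, Fzd2 or Fzd7 are shared with another gene, which for these 3 are each other. Each of the 3 plain ratios lay between the 5th and 95th percentile of the 6868 genes with 1280 to 20000 vector counts, a wide range.

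Fzd8 and Fzd5, which form a second subfamily of close sequence, had lower levels. Fzd8 had FPKM 2.82 in the OE-labelled and 2.35 in the vector library (1145 and 1299 counts), and Fzd5 had 1.62 and 1.29 (762 and 822 counts). Both had a log2 ratio of 0.19, with intervals of 0.11 to 0.27 for Fzd8 and 0.11 to 0.28 for Fzd5, and both lay just under 0 once the trend with exon length was removed, Fzd8 at −0.02. Fzd4, also the receptor of Norrin in retinal vessels, had FPKM 1.06 and 1.17 (485 and 730 counts) and a log2 ratio of −0.08 (−0.16 to 0.01). In the vector library the counting intervals of Fzd5 (1.20 to 1.38) and Fzd4 (1.09 to 1.26) overlapped, and in the OE-labelled library they did not (1.51 to 1.74 and 0.97 to 1.16). Such overlap does not measure a difference between the libraries, and the proportion of this pair was not compared.

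The remaining 4 Frizzleds were scarce and showed no difference beyond their counting intervals. Fzd6, which with Fzd3 is known for planar polarity, had 175 and 250 counts, and Fzd3 had 81 and 122. Fzd10 had 28 and 39 counts and Fzd9 had 12 and 30. Their FPKM lay between 0.07 and 0.56, so an effect on them could only be seen if it were wide. The median log2 ratio over the 10 Frizzleds was −0.02, with 3 above 0 and 7 below.

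**Figure D4:**
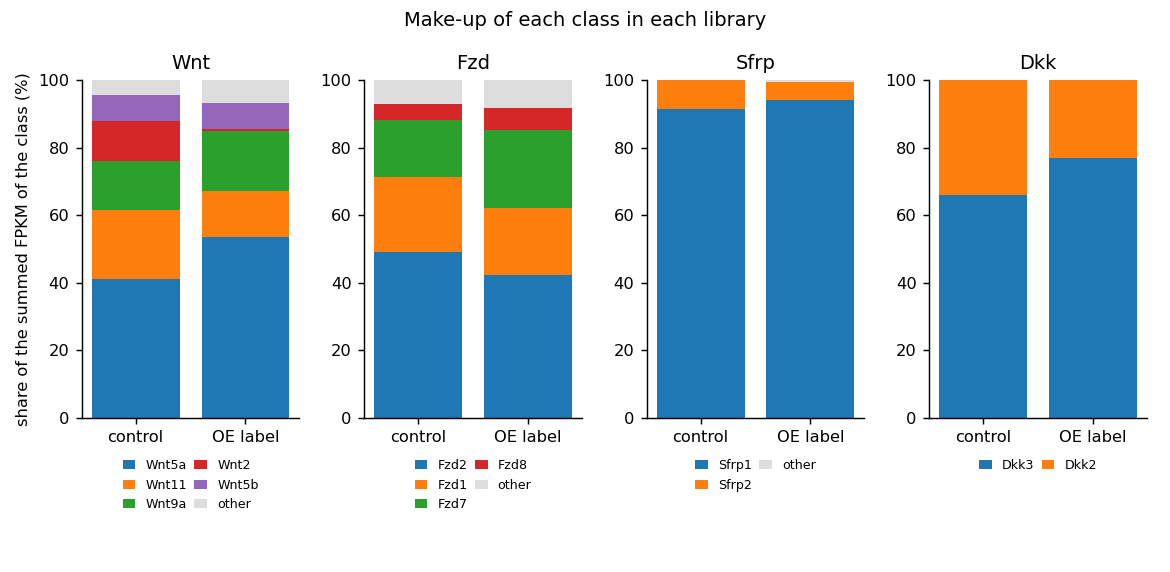
Share (%) of the summed FPKM of each class held by its main genes, in the vector library (left bar) and the OE-labelled library (right bar), 1 library each. Wnt2 goes from 11.9% to 0.57% of the ligands between the bars, Fzd7 goes from 16.8% to 22.9% of the Frizzleds, and Dkk2 from 33.97% to 23.2% of the Dkk genes.

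Of the secreted inhibitors, Dkk2 had the widest log2 ratio of (FPKM + 1), while by the plain ratio the scarce Sfrp4, given below, stood further from 0. Dkk2 binds Lrp5 and Lrp6 and, in most settings, blocks their use by WNTs. It had FPKM 5.76 and 1448 counts in the OE-labelled library, and 10.8 and 3687 counts in the vector library. The log2 ratio was −0.80 (−0.88 to −0.72), just short of 2-fold, and it passed 2-fold with the GC trend removed (−1.09) and with size factors (−1.03). Of 6868 genes with 1280 to 20000 counts in the vector library, 1.88% had a plain ratio as low or lower. The lower adipocyte markers of the OE-labelled library stand beside this value too, and their part in it was not tested.

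Dkk3 (chr7:112116017-112159057, minus strand), a divergent relative that does not bind Lrp5 or Lrp6 in the way Dkk2 does, was the more abundant at FPKM 19.03 and 20.9 (4338 and 6495 counts). Its log2 ratio was −0.13 (−0.18 to −0.08). Dkk2 stood at 0.303 of the Dkk3 level in the OE-labelled library and at 0.515 in the vector library. The log2 difference of that proportion was −0.77 (−0.87 to −0.66), an interval of counting error only, for a pair chosen after the values were seen.

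The Sfrp genes showed the same kind of contrast between a main and a minor gene. Sfrp1 (chr8:23411502-23449632, plus strand) was the most abundant member of all, at FPKM 29.8 in the OE-labelled and 31.9 in the vector library (8843 and 12866 counts), with a log2 ratio of −0.09 (−0.13 to −0.05). Sfrp2 had FPKM 1.73 and 2.95 (254 and 588 counts), with a log2 ratio of −0.53 (−0.67 to −0.38). Sfrp2 against Sfrp1 differed by −0.67 on the log2 scale (−0.89 to −0.45). Of 1448 genes with 320 to 639 counts in the vector library, 5.66% had a plain ratio as low as that of Sfrp2 or lower, so Sfrp2 was not outside the range of like genes. Sfrp4, the third gene, was scarce with 42 and 18 counts. Its plain ratio was 1.67 (0.84 to 2.55), its ratio with the pseudocount 0.15, and with the GC trend removed −0.21.

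Over the 5 inhibitors, 4 had a log2 ratio below 0 and 1 above, with a median of −0.13. The medians of the ligand and Frizzled classes were 0 and −0.02. With so few genes in each class these medians are descriptions of the pair of libraries.

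Exons of 6 members overlap a gene on the other strand (Wnt5a, Wnt11, Wnt7b, Fzd5, Fzd6 and Sfrp2). The methods of the study name a stranded library kit. Whether the counting used strand was not given in the sources used here, and if it did not, the reads of such pairs cannot be told apart. Of the 30 members 16 share no word of 31 bases with any other gene.

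The pathway outside these families was read through 65 further genes, of which 63 were detected. None passed 2-fold in (FPKM + 1), with 34 above 0, 29 below and a median of 0.02, in a range from −0.68 to 0.67. By the plain ratio 1 was 2-fold higher (Celsr2) and 3 were 2-fold lower (Notum, Lgr5 and Cpz) among 57 genes. These shares are close to or below those of all genes given above.

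WNT-making and receiving cells also need secretion factors and co-receptors. Wls, which carries WNTs to the surface, had FPKM 22.8 in the OE-labelled and 19.9 in the vector library, and Porcn, which adds the lipid, had 1.44 and 1.72. Notum, a secreted enzyme that removes that lipid, had 40 and 163 counts. The co-receptor Lrp5 had a log2 ratio of −0.20 and Lrp6 of 0.02, while Ror2, a receptor for Wnt5a, was at −0.48 (−0.57 to −0.39) with FPKM 3.33 and 5.05. Of the 6 co-receptors 4 were below 0, with a median of −0.18, and after centring 0 were above 0 and the median was −0.30. In the R-spondin axis, which raises the number of Frizzleds on the cell, 4 of 8 detected genes were above 0 and 4 below, with Rspo2 at 0.35 and Lgr5 at −0.19. Of 9 other antagonists 5 were below 0, the lowest being Cpz at −0.68, a carboxypeptidase with a Frizzled-like domain (FPKM 0.44 and 1.30). After centring, 2 of the 8 R-spondin axis genes (median −0.12) and 1 of the 9 antagonists (median −0.18) were above 0. Over all detected genes, 8576 of 21364 were above 0 after centring, with a median of −0.065.

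Downstream, the 18 genes of the β-catenin machinery had a median of 0.09, with 11 above 0, near the share over all detected genes, and after centring 8 above 0 and a median of −0.036. Ctnnb1, β-catenin itself, had FPKM 128 in the OE-labelled and 94.4 in the vector library, a log2 ratio of 0.44 and 0.31 after centring. Csnk1a1 and Apc, parts of the complex that marks β-catenin for degradation, were at 0.67 and 0.55, and 0.29 and 0.19 with the GC trend removed. Of the 11 planar polarity genes 9 were above 0, with a median of 0.09, but after centring 4 were above 0 and the median was −0.035. In that list Prickle1 was the lowest at −0.62 and Daam1 the highest at 0.50, or 0.37 centred.

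The targets and feedback genes had a median of −0.04, with 7 above 0 and 8 below, and after centring 4 of 15 were above 0 and the median was −0.17. Axin2, the most widely used readout of β-catenin signalling, had only 50 counts in the OE-labelled and 91 in the vector library, with a plain ratio of −0.42 (−0.95 to 0.09). Lef1 had 0 and 27 counts, which is 6.61-fold lower with the 0 set to 3 counts and counting error left out. Of 1338 genes with 20 to 39 vector counts, 5.38% were at 0 in the OE-labelled library. Nkd2, a feedback inhibitor, was the highest at 0.62, with FPKM 13.7 and 8.58. Notum and Lgr5, given above, also belong to this list. Their plain ratios were −1.58 (−2.12 to −1.07) and −1.19 (−1.56 to −0.83), both from genes under FPKM 1. That is 2 of 13 targets 2-fold lower and 0 higher, against 4.22% and 13.4% of all genes. Among these targets a difference in Axin2 was not detectable at this depth, and by the log2 ratio of (FPKM + 1) the others lay on both sides of 0.

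**Figure D5:**
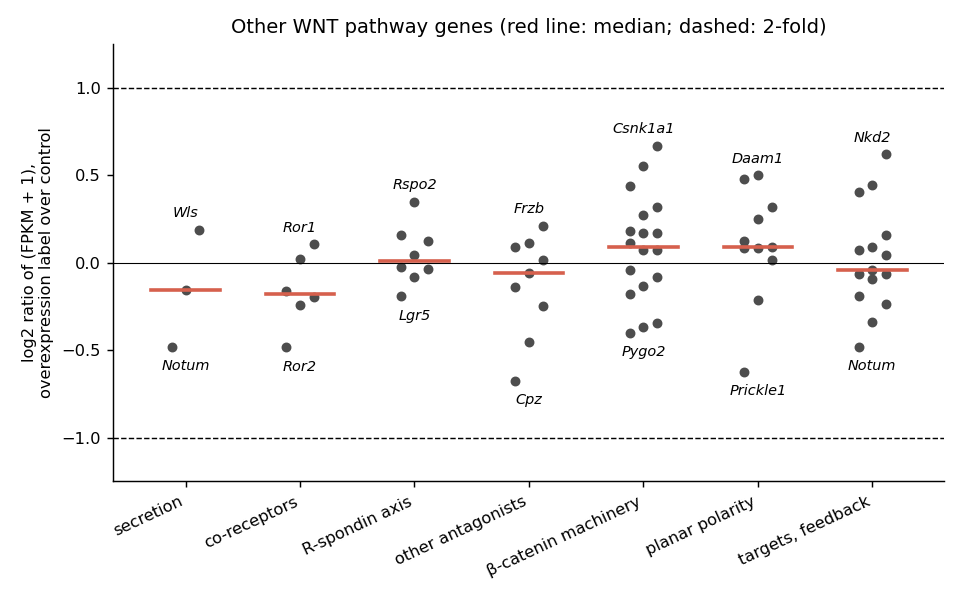
Log2 ratio of (FPKM + 1), OE-labelled over vector library, of the detected WNT pathway genes outside the 4 families (points, 1 column per list), with the median of each list (red line) and 2-fold (dashed lines). All points lie inside the dashed lines, and the list medians lie between −0.18 and 0.09. Genes in 2 lists, such as Notum, are drawn in both.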

How the data were processed

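RNA of 1 culture per condition was sequenced as a poly(A) library, made with a stranded kit. The authors deposited a raw count per gene and an FPKM value, rounded to 2 decimals. The submitters' processing notes name cutadapt 1.9, HISAT2 2.2.1, StringTie 2.1.6 and mm10, as well as DESeq2 and edgeR, while the methods of the study name STAR and FeatureCounts. The annotation release is not given in the sources used here. FPKM depends on the library total used, so that a few abundant genes can shift all others.

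Libraries were compared by the log2 ratio of (FPKM + 1), and genes above 3 counts in at least 1 library were called detected. Counts gave exact Clopper-Pearson intervals of each gene's share, carried to the FPKM scale, and the plain ratio. No test was run, because each condition has 1 library. The ratio step was tested on simulated counts, with changes set only in well-expressed genes and with counting error alone, so scarce genes such as Wnt2 were not covered. Gene positions, GC content and exon lengths came from GENCODE M21 (26012 of 26082 genes matched), and trends with GC content or length were removed as medians of 20 bins. Promoters came from RefSeq (GRCm38.p6). Python 3.11.15, numpy 2.4.6, pandas 2.3.3, scipy 1.17.1 and matplotlib 3.10.9 were used.

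Every member is named, as are single marker genes. From each pathway list, up to 5 genes with the widest log2 ratios could be named, besides Axin2, Lef1, Lrp5, Lrp6, Ctnnb1 and the label check Tgfbr3. Porcn, Wls and the genes past 2-fold by the plain ratio fall under this rule or were named after their values were seen. Members, lists and motifs were chosen with earlier results of these data known. The design was written for FPKM, and the counts found beside it were added for intervals and the floor. Alternatives covered the pseudocount, scaling, GC and length trends, filters and the fold threshold.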

Additional observations from a re-analysis of the deposited data

How the results depend on the processing

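No paired analysis was possible because each condition has 1 library, and for the same reason no replicate could be left out. Wnt2 and Dkk2 stayed lower under every alternative that kept them. Wnt7b, Wnt4 and Sfrp4, at least 2-fold higher by the plain ratio, changed side, to −0.04 and −0.05 centred for Wnt7b and Wnt4 and to −0.21 with the GC trend removed for Sfrp4. Each of these shifts was wider than the log2 ratio of (FPKM + 1) of the gene, which the pseudocount keeps small at so low an FPKM. The change of side therefore does not show a direction for these genes. Leaving out the filter on low counts kept the counts of members and pathway genes, with 1.41% of all genes higher and 0.48% lower. The count of members lower by at least 2-fold was 2 (Wnt2 and Dkk2) with the GC trend removed, 2 with median-of-ratios size factors and 2 at a 1.5-fold threshold, and 0 with a mean FPKM of at least 1, a filter that leaves Wnt2 out. The count higher was 3 without pseudocount. The count of pathway genes lower was 3 with a pseudocount of 0.1, 3 without pseudocount, 1 on CPM and 2 at 1.5-fold, and the count higher was 1 without pseudocount and 2 at 1.5-fold. Of all genes, 8.88% were higher and 3.17% lower with a pseudocount of 0.1, 13.4% and 4.22% without, 2.99% and 0.92% on CPM, 1.14% and 1.29% with size factors, 3.14% and 1.03% at a mean FPKM of at least 1, and 7.89% and 2.85% at 1.5-fold. After centring 1.29% were higher and 0.91% lower, and with the GC trend removed 1.11% were higher and 0.70% lower.

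The median log2 ratio of the ligands was −0.23 without pseudocount, −0.13 centred, −0.10 with size factors, 0.071 with the GC trend removed and −0.10 with the length trend removed. That of the Frizzleds was −0.11 without pseudocount, −0.14 centred, −0.11 with the GC trend removed, −0.12 with the length trend removed and 0.057 at a mean FPKM of at least 1. That of the Sfrp genes was −0.22 centred, −0.34 with size factors, −0.21 with the GC trend removed, −0.18 with the length trend removed and −0.31 at a mean FPKM of at least 1. That of the Dkk genes was −0.59 centred, −0.70 with size factors, −0.67 with the GC trend removed and −0.58 with the length trend removed. The pathway median was 0.087 with a pseudocount of 0.1, 0.14 without, −0.10 centred, −0.072 with size factors, −0.068 with the GC trend removed, −0.15 with the length trend removed and 0.10 at a mean FPKM of at least 1. Scaled to a common FPKM sum, the class sums were lower by log2 values of −0.18 for ligands, −0.12 for Frizzleds, −0.065 for Sfrp and −0.28 for Dkk. The signs of the ligand, Frizzled and pathway medians therefore depend on the setting, and those of the Sfrp and Dkk medians did not. The cause was not tested. Restricting the plain ratio to members with at least 100 counts in 1 library, chosen after seeing the data, still gave 1 lower gene, Wnt2.

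Depth limits the scarce ligands, Sfrp4 and Fzd3, Fzd6, Fzd9 and Fzd10 most. The spread between cultures is unknown, and it was not measured for any value given.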

Other observations

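Certain low counts were more frequent than their neighbours in both libraries. Exactly 4 counts were found in 913 genes of the OE-labelled library and 930 of the vector library, against 458 and 416 genes at 3 counts and 323 and 271 genes at 5 counts. Exactly 8 counts were found in 405 and 398 genes, against 280 and 260 at 7 counts and 197 and 157 at 9 counts. Among the members, Wnt7a had 4 counts in the OE-labelled library and Wnt7b 4 counts in the vector library.

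Of the 10 detected FAP markers 4 had a log2 ratio above 0 and 6 below, with a median of −0.06. Pdgfra (−0.09), Pdgfrb (−0.08) and Thy1 (−0.04) lay close to 0. Col1a1 (−0.89), Osr1 (0.58), Cd34 (−0.30) and Dcn (0.14) lay further off, and Lum (0.30) was scarce, with 45 and 8 counts. Col3a1, the lowest and the only one past 2-fold in (FPKM + 1), is a fibrillar collagen gene and had FPKM 95.8 in the OE-labelled and 199 in the vector library, a log2 ratio of −1.05, while Ly6a, which encodes the Sca-1 antigen of FAPs, had 1013 and 706, a log2 ratio of 0.52.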
